A study of Mus musculus with 6 samples.

Results

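The genes of 9 adipokines were followed in epididymal white adipose tissue (eWAT): Lep, Adipoq, Retn, Lcn2, Rbp4, Cfd, Nampt, Rarres2 and Apln. They were chosen by gene symbol, and all 9 were found among the 21361 genes of the table. RNA was sequenced from 6 male mice with loxP-flanked Mettl14 alleles (Mettl14f/f), all fed a high fat diet (HFD) from 8 weeks of age and fasted overnight before the tissue was taken. The 3 Mettl14f/f mice carried no Cre, and their genotype is written WT in the labels. The 3 Mettl14Δfat mice also carried Cre under the adiponectin promoter, the regulatory sequence of a member of the set, so Mettl14 loss cannot be told apart from presence of the transgene. The diet lasted 16 weeks by the sample labels and 20 weeks by the design text. Each library came from 1 mouse. Values are FPKM, sequenced fragments corrected for transcript length and library depth, which can be compared between genes of different length, and were scaled between libraries as described under processing.

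Adipokines are proteins that fat tissue secretes into the blood or to its neighbours. Leptin reports the size of the fat stores to the brain, adiponectin improves insulin action in liver and muscle and falls in obesity, and resistin, lipocalin 2, retinol-binding protein 4, adipsin, visfatin, chemerin and apelin act on insulin action, immune cells, complement, NAD synthesis or blood vessels. Some are made mostly by adipocytes, while Lcn2, Nampt and Apln are also made by immune or vascular cells. Mettl14 is a subunit of the methyltransferase that places N6-methyladenosine (m6A) on mRNA.

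Lcn2, Rbp4, Apln and Rarres2 mRNAs were higher in Mettl14Δfat than in Mettl14f/f eWAT, by 8.84, 2.79, 3.86 and 2.25 times in mean scaled FPKM. Lep mRNA was lower, with a ratio of 0.732. Adipoq, Retn, Cfd and Nampt did not pass the test. A gene was called at an adjusted p under 0.05 (limma, Benjamini-Hochberg over the 12955 genes whose mean reached 1 FPKM, a filter that all 9 adipokines passed). Thus 5 of 9 adipokines (55.6%) were called, against 49.5% of all genes tested, and 4 were higher against 24.8% and 1 lower against 24.7%. The adipokines were therefore called about as often as genes in general, and the results below concern which of them moved and by how much. Their median log2 fold change was -0.079, beside 0.011 over all genes tested.

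The promoters of 3 genes are shown because each holds the core TTNNGCAA of C/EBP elements, bound by the C/EBP factors of adipocyte differentiation, and belongs to a called gene. They are RefSeq sequences of GRCm38.p6 (mm10), written 5′ to 3′ on the gene's strand and ending at the base before the transcript start. The C/EBP core is in capitals, with the hypoxia response core NACGTG and the TATA box TATAAA where they occur. In Lcn2 the C/EBP core lies on the opposite strand, so its capitals show the reverse complement of TTNNGCAA.
Lep (chr6:29060121-29060220, plus strand): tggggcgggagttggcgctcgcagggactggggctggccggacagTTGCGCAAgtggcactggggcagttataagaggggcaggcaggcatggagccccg
Lcn2 (chr2:32387740-32387989, minus strand): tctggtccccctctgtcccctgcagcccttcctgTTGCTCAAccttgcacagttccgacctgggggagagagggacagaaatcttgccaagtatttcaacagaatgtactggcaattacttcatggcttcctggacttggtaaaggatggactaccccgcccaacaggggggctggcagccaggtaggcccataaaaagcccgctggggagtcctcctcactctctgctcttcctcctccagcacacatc
Rbp4 (chr19:38124812-38125061, minus strand): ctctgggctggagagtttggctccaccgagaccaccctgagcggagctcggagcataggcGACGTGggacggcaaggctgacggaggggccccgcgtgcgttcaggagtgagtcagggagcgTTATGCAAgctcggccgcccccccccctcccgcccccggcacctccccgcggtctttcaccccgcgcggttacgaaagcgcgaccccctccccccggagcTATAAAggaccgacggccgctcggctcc

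RefSeq promoters were matched for 8 of the 9 genes, with 2 starts for Rbp4, and Rarres2 had none in the table. Over the 250 bases before the start and on both strands, the C/EBP core was found in Lep, Lcn2 and the downstream Rbp4 start, and in 9.56% of all 32851 promoters and 7.72% of the 13032 promoters of genes tested. In Lep it lay 55 to 48 bases before the start, in Lcn2 216 to 209 and in Rbp4 128 to 121. NACGTG was found in Nampt and Rbp4 and in 16.5% of all promoters and 21.1% of those of genes tested, and TATAAA in Rbp4 and in 12.4% and 6.65%. The frame of NF-kB elements, GGG followed by CC after 5 free bases, was in Lep, Retn, Lcn2, Rbp4 and Cfd, but also in 45.8% of all promoters and 60.7% of those of genes tested. The PPAR direct repeat, searched with 1 free base in each repeat, was in no adipokine and in 0.338% of promoters, and the E-box CACGTG, which contains a match to NACGTG, was in no adipokine and in 6.02%. These are matches of letters, with no binding measured.

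GGACT is a short sequence at which m6A is often placed. It was counted in the longest GENCODE vM21 transcript matched to each gene's RefSeq identifier, and 12352 of the 12955 genes tested had a match. The Rarres2 mRNA held 4 copies in 795 bases, or 5.03 per kilobase, and only 0.081% of matched genes had a higher density. Its transcript was short, since matched genes had a median length of 2953 bases. Their median number of copies was 3, and 91.9% held at least 1. Lep and Apln also held 4 copies, in longer transcripts. Lcn2 held 2 copies (2.19 per kilobase, exceeded by 9.24% of genes), while Cfd held none. The other 6 adipokines had between 0.221 per kilobase in Nampt and 1.55 in Adipoq, beside a median of 1.07 over all matched genes. Among the called genes, Apln and Lep were near that median at 1.27 and 1.23, and Rbp4 was below it at 0.861. m6A was not measured in these libraries, so a copy of GGACT is not a modified site. Not all copies lay in coding sequence. Lep held 3 and Apln 2 in the 3′ untranslated region, and Rarres2 held 2 in the 5′ and 1 in the 3′ untranslated region. Only the copies in coding sequence are printed, for Lcn2, Rarres2, Apln and Lep, the called genes with more than 1 copy. They are windows of 25 bases of GRCm38 with GGACT in capitals.
Lcn2, coding, exon 1 of 6 (chr2:32387641-32387665, minus strand): gccaggcccaGGACTcaactcagaa
Lcn2, coding, exon 4 of 6 (chr2:32385768-32385792, minus strand): tggccaccacGGACTacaaccagtt
Rarres2, coding, exon 3 of 6 (chr6:48571808-48571832, minus strand): gccccaagaaGGACTggaaaaagcc
Apln, coding, exon 2 of 3 (chrX:48028422-48028446, minus strand): agatggaacaGGACTagaagaagga
Apln, coding, exon 2 of 3 (chrX:48028373-48028397, minus strand): agaacttcgaGGACTggaccaggag
Lep, coding, exon 3 of 3 (chr6:29070848-29070872, plus strand): tcactggcttGGACTtcattcctgg

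Lep, Adipoq and Retn encode the classical adipocyte hormones. Lep (leptin, chr6:29060221-29073876) was at 429, 368 and 412 scaled FPKM in Mettl14f/f replicates 1 to 3 and at 306, 343 and 235 in Mettl14Δfat replicates 1 to 3. The lowest Mettl14f/f mouse lay above the highest Mettl14Δfat mouse. The means were 403 ± 31.7 and 295 ± 55.1 (SD, n = 3 each), and Lep fell by 0.46 on the log2 scale (SE 0.147, adjusted p = 0.0382, limma). This call was near the threshold. It was lost in 4 of the 6 fits that left out 1 library, with adjusted p (limma) of 0.104, 0.0592 and 0.106 without Mettl14f/f replicates 1, 2 and 3 and 0.0818 without Mettl14Δfat replicate 1. It was also lost with the animal number series as a block (adjusted p = 0.0566, limma) and on FPKM as deposited (log2 fold change -0.30, adjusted p = 0.154, limma).

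Adipoq (adiponectin, chr16:23146536-23157968) had 588, 333 and 484 scaled FPKM in Mettl14f/f and 370, 434 and 246 in Mettl14Δfat mice. The groups overlapped, since Mettl14f/f replicate 2 was below 2 of the Mettl14Δfat mice. The log2 fold change was -0.42 with a 95% interval from -1.07 to 0.23 (adjusted p = 0.238, limma), an interval that includes no difference. With the mean log2 level of the adipocyte markers in each library as a covariate, the estimate was -0.48 and passed the threshold (adjusted p = 0.0138, limma). Adipoq did not pass in 16 of the 17 other analyses. With single libraries left out, it ran from -0.65 to -0.19 (adjusted p of 0.101 to 0.524, limma).

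Retn (resistin, made by adipocytes in mice, chr8:3655770-3659818) was at 170, 63.0 and 128 scaled FPKM in Mettl14f/f and 64.2, 72.7 and 50.5 in Mettl14Δfat mice. Mettl14f/f replicate 2 lay among the Mettl14Δfat mice and the other Mettl14f/f mice above all of them. The log2 fold change was -0.84 (95% interval -1.68 to 0.01, adjusted p = 0.0897, limma). Without Mettl14f/f replicate 2 it was -1.25 (adjusted p = 0.00864, limma), and with the adipocyte markers as a covariate -0.92 (adjusted p = 0.00816, limma). Without Mettl14f/f replicate 1 it was -0.53 (adjusted p = 0.226, limma). Retn stayed not past in 15 of the 17 other analyses.

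Lcn2, Rbp4 and Rarres2 encode secreted carriers and attractants. Lcn2 (lipocalin 2, which binds iron-carrying siderophores of bacteria, chr2:32384637-32387739) was at 29.2, 15.9 and 13.7 scaled FPKM in Mettl14f/f and at 183, 199 and 138 in Mettl14Δfat mice. Every Mettl14Δfat mouse was far above every Mettl14f/f mouse. The means were 19.6 ± 8.40 and 173 ± 31.3 (SD, n = 3 each), and the log2 fold change was 3.14 (SE 0.281, adjusted p = 0.000479, limma). By log2 fold change Lcn2 ranked 8 among the 12955 genes tested.

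Rbp4 (retinol-binding protein 4, the carrier of retinol in blood, chr19:38116620-38125321) was at 85.2, 39.6 and 70.7 scaled FPKM in Mettl14f/f and at 199, 233 and 112 in Mettl14Δfat mice. The groups did not overlap, but Mettl14Δfat replicate 3 was well below replicates 1 and 2. The log2 fold change was 1.47 (SE 0.359, adjusted p = 0.0153, limma). It was 1.37 without Mettl14Δfat replicate 1 (adjusted p = 0.0534, limma) and 0.86 for Mettl14Δfat replicate 3 alone against the 3 Mettl14f/f mice (adjusted p = 0.185, limma, the single library being assumed to vary like the others).

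Rarres2 (chemerin, which attracts macrophages and dendritic cells, chr6:48569696-48572845) was at 250, 177 and 213 scaled FPKM in Mettl14f/f and at 486, 528 and 427 in Mettl14Δfat mice. The lowest Mettl14Δfat mouse was above the highest Mettl14f/f mouse, and the log2 fold change was 1.18 (SE 0.141, adjusted p = 0.00117, limma). Rarres2 was thereby the most abundant of the 9 mRNAs in Mettl14Δfat eWAT by mean, at 481 ± 50.7 (SD, n = 3), while Adipoq was the most abundant in Mettl14f/f eWAT at 468 ± 128 (SD, n = 3).

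Apln (apelin, a peptide that acts on blood vessels and heart, chrX:48025146-48034853) was the least abundant, at 1.80, 1.35 and 1.61 scaled FPKM in Mettl14f/f and 6.15, 7.07 and 5.17 in Mettl14Δfat mice. The groups were far apart relative to their spread. On the log2(FPKM + 1) scale used for the test, which understates the change of low genes, the difference was 1.46 (SE 0.120, adjusted p = 0.000396, limma).

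Cfd and Nampt encode enzymes. Cfd (adipsin, the complement factor D protease that starts the alternative pathway, chr10:79890853-79892655) was at 194, 50.8 and 127 scaled FPKM in Mettl14f/f and at 113, 160 and 59.1 in Mettl14Δfat mice. The groups overlapped over most of their range, and within Mettl14f/f the highest mouse was 3.82 times the lowest, the widest spread of the 9 genes. The log2 fold change of -0.079 had a 95% interval from -1.40 to 1.24 (adjusted p = 0.914, limma), and its sign turned on FPKM as deposited (0.080) and when Mettl14f/f replicate 1 or 3 or Mettl14Δfat replicate 3 was left out (0.34, 0.035 and 0.31).

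Nampt (visfatin, which makes the NAD precursor nicotinamide mononucleotide, chr12:32820335-32853369) was at 27.9, 20.3 and 21.96 scaled FPKM in Mettl14f/f and at 21.4, 17.9 and 22.6 in Mettl14Δfat mice. The groups overlapped. Its log2 fold change was -0.17 with a 95% interval from -0.49 to 0.16 (adjusted p = 0.34, limma).

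**Figure D1:**
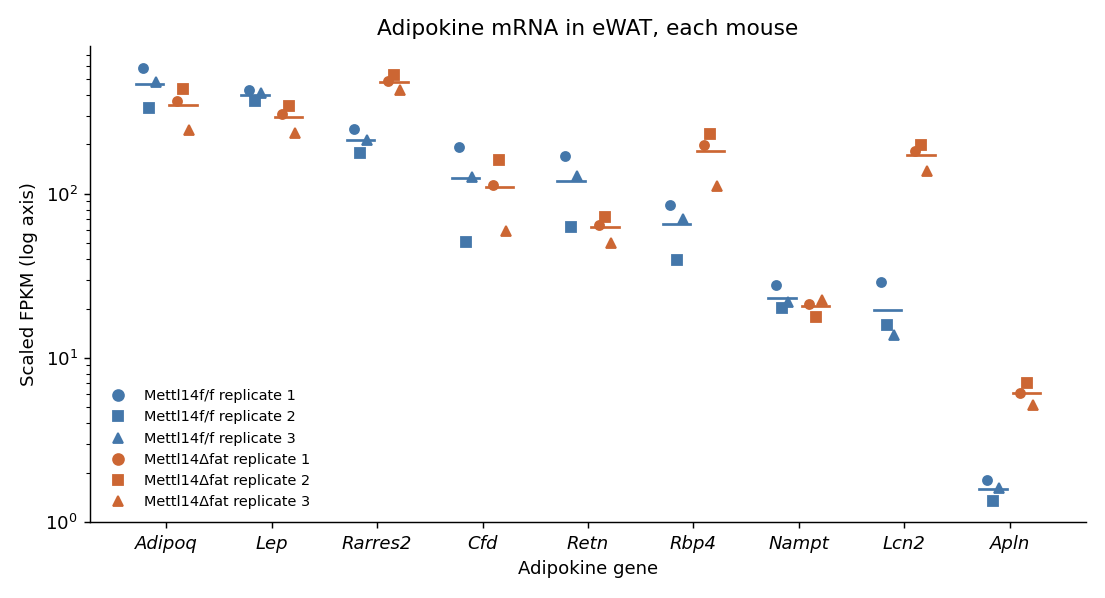
Scaled FPKM (log axis) of each adipokine gene in each mouse, ordered by the Mettl14f/f mean; symbols are single libraries, blue for Mettl14f/f and orange for Mettl14Δfat, and horizontal lines are group means. Lcn2, Rbp4, Rarres2 and Apln are higher in every Mettl14Δfat mouse than in any Mettl14f/f mouse, Lep is lower, and the other genes overlap.

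**Figure D2:**
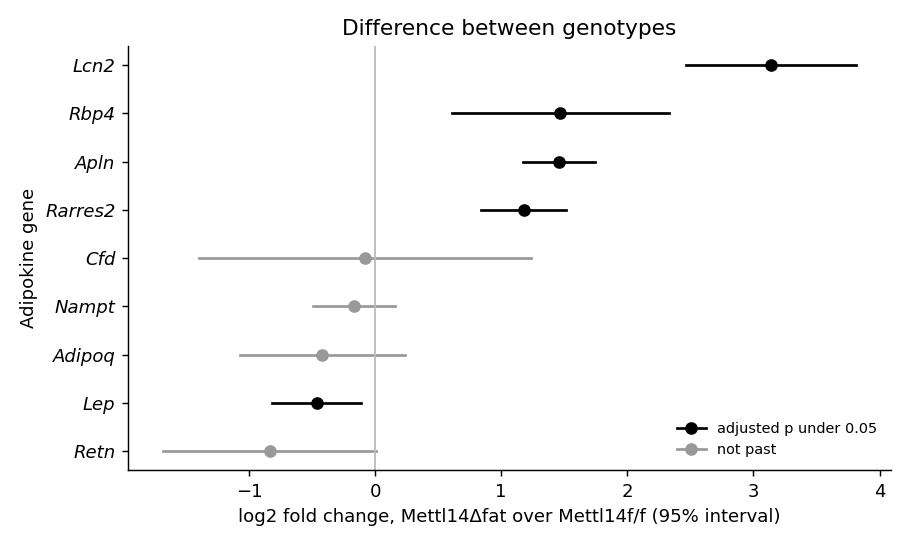
Points are the log2 fold changes of the 9 adipokine genes, Mettl14Δfat over Mettl14f/f, and lines their 95% intervals; black marks an adjusted p under 0.05 (limma) and grey the rest. The values run from -0.84 for Retn to 3.14 for Lcn2, and the Cfd interval is the widest, from -1.40 to 1.24.

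The groups did not overlap for the 5 called genes, against 61.2% of all genes tested, with 4 higher against 30.3% and 1 lower against 30.9%. For each of these 5, the exact two-sided permutation test gave p = 0.1, the smallest that 3 mice against 3 allow. For the overlapping genes the exact permutation test gave p = 0.3 for Adipoq and Retn, p = 0.5 for Nampt and p = 0.9 for Cfd. Lcn2, Rarres2 and Apln kept their calls under all 17 other analyses (log2 fold changes of 2.84 to 3.45, 1.03 to 1.34 and 1.26 to 1.88), among them the fit with Mettl14Δfat replicate 3 alone.

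The make-up of the adipokine mRNA pool differed between genotypes. As a share of the summed deposited FPKM of the 9 genes, Lcn2 took 1.65%, 1.48% and 0.932% in Mettl14f/f and 10.4%, 9.96% and 10.7% in Mettl14Δfat replicates 1 to 3. Rarres2 took 14.1%, 16.6% and 14.5% in Mettl14f/f and 27.8%, 26.5% and 33.0% in Mettl14Δfat mice. The shares of the 3 adipocyte hormones were smaller in the Mettl14Δfat libraries. Adipoq took 33.1%, 31.2% and 32.9% and then 21.2%, 21.7% and 19.0%, Lep 24.2%, 34.4% and 28.0% and then 17.5%, 17.2% and 18.1%, and Retn 9.60%, 5.89% and 8.68% and then 3.67%, 3.64% and 3.90%. None of these 5 shares overlapped between the genotypes, although Adipoq and Retn overlapped in level, and shares of 1 sum are not independent of each other. The sum itself overlapped, at 0.372%, 0.216% and 0.302% of all FPKM in Mettl14f/f and 0.383%, 0.439% and 0.276% in Mettl14Δfat libraries.

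The balance between adipokines can also be read as ratios within each library, which do not depend on the scaling. Adipoq over Lep was 1.37, 0.907 and 1.17 in Mettl14f/f and 1.21, 1.26 and 1.05 in Mettl14Δfat mice, so it overlapped. Rarres2 over Adipoq was 0.424, 0.532 and 0.440 in Mettl14f/f and 1.31, 1.22 and 1.74 in Mettl14Δfat mice. Chemerin mRNA was thus below adiponectin mRNA in every Mettl14f/f mouse and above it in every Mettl14Δfat mouse. Lep over Plin1, the lipid droplet coat gene of adipocytes, was 2.40, 2.33 and 2.01 in Mettl14f/f and 1.46, 1.40 and 1.22 in Mettl14Δfat mice, and Retn over Plin1 was 0.952, 0.400 and 0.624 and then 0.306, 0.296 and 0.262. Both ratios were lower in every Mettl14Δfat mouse, but this depended on the marker below the line, and Plin1 itself was at a log2 fold change of 0.26 (adjusted p = 0.129, limma). Taking each of the 11 adipocyte markers in turn, a comparison added after the values were seen, Lep was lower without overlap over 7, higher over 1 (Pck1) and overlapping over 3. Adipoq was lower over 6, higher over 1 (Pck1) and overlapping over 4, and Retn was lower over 7 and overlapping over 4. Over Plin4, a further lipid droplet coat gene, Lep stood at 2.68, 3.09 and 2.37 in Mettl14f/f and 3.14, 3.12 and 2.93 in Mettl14Δfat mice, with overlap.

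**Figure D3:**
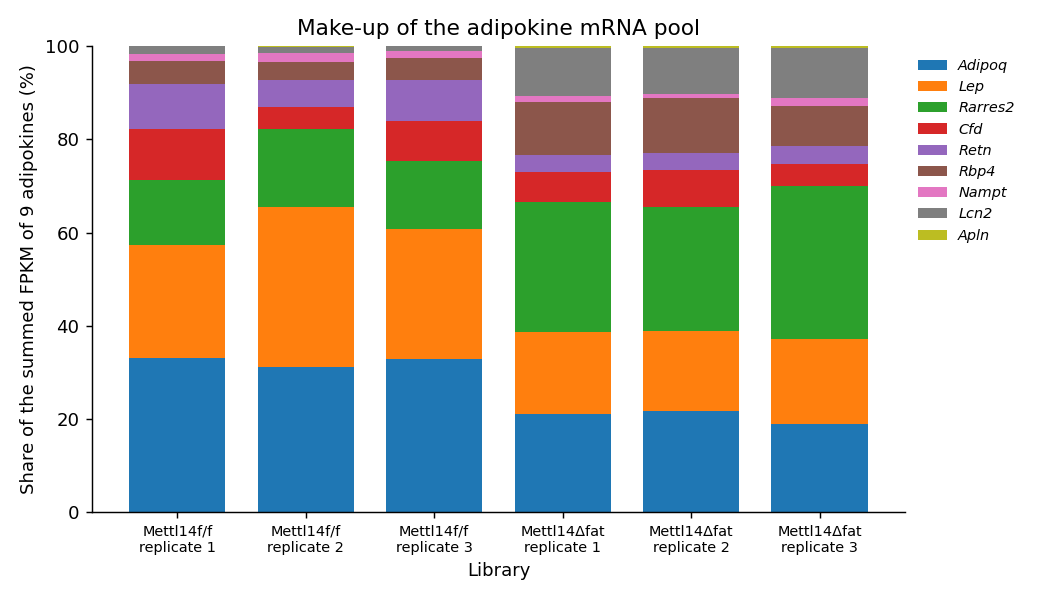
Each bar is 1 library, and its segments are the share (%) of the summed deposited FPKM of the 9 adipokine genes. The Lcn2 segment is 0.932% to 1.65% in the Mettl14f/f and 9.96% to 10.7% in the Mettl14Δfat libraries, and the Adipoq and Lep segments are smaller in the Mettl14Δfat libraries.

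Much of the spread within a genotype was shared by the adipokines. Mettl14f/f replicate 2 was the lowest of its group for 8 of 9 adipokines (all but Lcn2), and Mettl14Δfat replicate 3 for 8 of 9 (all but Nampt). These libraries were the lowest of their group for 32.3% and 41.5% of all genes tested. They were also the lowest for 11 and 10 of the 11 tested adipocyte markers, a list of lipid storage and lipolysis genes. The mean log2 level of these markers was 7.47, 7.09 and 7.50 in Mettl14f/f and 7.41, 7.57 and 7.19 in Mettl14Δfat replicates 1 to 3, so it overlapped between genotypes. In bulk tissue, fewer cells of a type and less RNA per cell cannot be told apart. With this level as a covariate, 7 of the 9 adipokines passed, against 51.0% of all genes tested in that fit. Cfd (log2 fold change -0.21, adjusted p = 0.389, limma) and Nampt (-0.17, adjusted p = 0.368, limma) were the exceptions. Of the 11 markers, 3 were called higher and 3 lower between genotypes, so their mean may itself depend on genotype. This fit therefore cannot be read as a correction for adipocyte content.

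**Figure D4:**
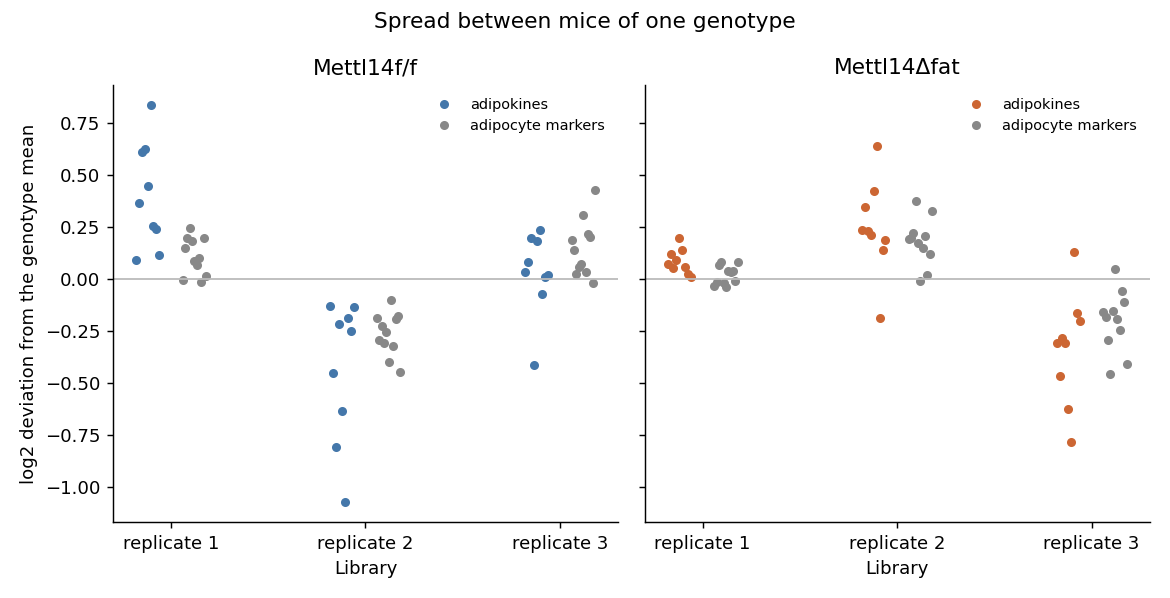
Deviation of each gene from its genotype mean in log2 units, by library; coloured points are the 9 adipokines and grey points the 11 adipocyte markers. Mettl14f/f replicate 2 and Mettl14Δfat replicate 3 lie below 0 for all but Nampt and Adrb3, both in Mettl14Δfat replicate 3, with Cfd the farthest in each.

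Mettl14 itself, the check of the deletion, was at 5.35, 5.01 and 5.81 scaled FPKM in Mettl14f/f and 4.21, 4.12 and 4.27 in Mettl14Δfat mice, without overlap, and fell by 0.30 on the log2 scale (adjusted p = 0.0108, limma). The adiponectin promoter drives Cre in adipocytes, while the whole tissue was sequenced. Of the adipocyte markers 3 were higher (Adrb3, Fabp4 and Aqp7), 3 lower (Pck1 and Plin4 among them) and 5 not past, with a median log2 fold change of 0.26. Thus 54.5% of these markers were called, against 49.5% of all genes tested. Without Mettl14Δfat replicate 1 only 1 was higher and 1 lower, and without Mettl14f/f replicate 1 or 3 only 1 was lower, with Mettl14Δfat replicate 3 alone 0 were higher, and on FPKM as deposited 6 were higher and 1 lower. Macrophage markers fell for 9 of 12, with none higher (median -1.20), and endothelial markers rose for 9 of 9 tested (median 0.89). Over all genes tested 24.7% were lower and 24.8% higher. Without Mettl14f/f replicate 1, 8 macrophage markers were lower and 1 was higher. Of the neutrophil markers 8 of 12 were below the filter, with Ngp, Camp, Ltf, Mpo, Elane and Ly6g under 1 FPKM in every library, and of the 4 tested 2 were higher and 0 lower. S100a8 rose, with 11.5 to 14.1 scaled FPKM in Mettl14f/f and 27.9 to 39.3 in Mettl14Δfat mice. The chemokine receptor Cxcr2 also rose, with 1.68 to 1.88 and 3.33 to 3.49 (log2 fold change 0.66, adjusted p = 0.000964, limma). S100a9, at 0.41, and Csf3r, at 0.22, overlapped and did not pass (adjusted p = 0.337 and 0.391, limma). Male germ line markers summed to 189 and 293 scaled FPKM in Mettl14Δfat replicates 1 and 2, to 0.473 in replicate 3 and to 0.279 to 0.987 in Mettl14f/f mice, and epithelial markers followed the same libraries (69.1 and 114, against at most 1.45), while epididymal markers summed to at most 3.42. Of the hepatocyte markers, a source of Rbp4 and acute phase mRNA, 7 of 10 were below the filter, and of the 3 tested Serpina1a rose by 1.67 (0.816 to 1.34 scaled FPKM in Mettl14f/f and 4.81 to 6.08 in Mettl14Δfat mice) and Ahsg fell by 0.57 on the log2 scale. All 8 mesothelial markers tested were not past, but Krt18 and Krt19 were high in Mettl14Δfat replicates 1 and 2 only. Krt18 was at 13.2, 20.7 and 0.502 scaled FPKM in Mettl14Δfat replicates 1 to 3 and 0.773 to 1.48 in Mettl14f/f mice. Krt19 was at 10.4, 20.0 and 2.42, against 3.82 to 4.43. Of 8 fibroblast progenitor markers 1 was higher and 3 lower (50% called against 49.5% of all genes tested). Mettl14Δfat replicate 3 lacks the germ line and epithelial signal. Against Mettl14f/f, it gave log2 fold changes of 2.84 for Lcn2, 1.03 for Rarres2 and 1.26 for Apln. For Rbp4 it gave 0.86, beside 1.47 with all 3 Mettl14Δfat mice. The part of the other cell types in these levels was not tested.

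Receptors and binding partners of the adipokines were read from the same fit. Of the 18 receptors and partners found, 14 were tested, and 4 were higher, 5 lower and 5 not past, with a median log2 fold change of -0.15. Thus 64.3% were called, against 49.5% of all genes tested. The apelin receptor Aplnr rose along with its ligand, from 9.26, 8.53 and 9.65 scaled FPKM in Mettl14f/f to 22.6, 22.5 and 23.7 in Mettl14Δfat mice. These groups were 2.51 times apart with almost no spread in either (log2 fold change 1.24, SE 0.0597, adjusted p = 0.000107, limma). Aplnr is a gene of endothelial cells. The endothelial markers that rose most, Tie1, Emcn, Kdr and Cdh5, rose by 1.18, 1.12, 1.12 and 1.03 on the log2 scale. The other endothelial markers tested rose by 0.43 (Tek) to 0.89 (Pecam1). Esm1, below the filter, was lower, with means of 0.380 scaled FPKM in Mettl14f/f and 0.217 in Mettl14Δfat mice. The part of endothelial cells in the Aplnr level was not tested.

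The adiponectin receptors differed from each other. Adipor2, the receptor that predominates in liver, was at 86.8, 75.04 and 94.0 scaled FPKM in Mettl14f/f and 121, 132 and 106 in Mettl14Δfat mice and rose (log2 fold change 0.49, adjusted p = 0.0124, limma). Adipor1, the receptor that predominates in muscle, was at -0.13 (adjusted p = 0.1, limma), although its groups did not overlap. Cdh13 (T-cadherin), which binds adiponectin multimers on vessel walls, was at 9.54, 8.13 and 9.87 scaled FPKM in Mettl14f/f and 19.7, 21.4 and 18.2 in Mettl14Δfat mice, a rise without overlap (log2 fold change 1.03, adjusted p = 0.000446, limma).

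Of the chemerin receptors, Cmklr1, through which chemerin attracts leukocytes, was at 45.9, 44.4 and 53.9 scaled FPKM in Mettl14f/f and 33.0, 29.9 and 44.6 in Mettl14Δfat mice. The groups overlapped narrowly, and the log2 fold change of -0.43 did not pass (adjusted p = 0.0572, limma). Ccrl2, which presents chemerin without signalling, fell from 11.1, 12.4 and 13.4 to 4.94, 4.41 and 5.77 scaled FPKM, without overlap (log2 fold change -1.14, adjusted p = 0.000492, limma). Gpr1, a further chemerin receptor, was close to 1 FPKM and at -0.068 (adjusted p = 0.828, limma). None of the chemerin receptors tested was higher, while Rarres2 itself was.

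Cap1, reported in human cells as a resistin receptor, fell from 230, 276 and 249 to 131, 114 and 159 scaled FPKM, without overlap (log2 fold change -0.90, adjusted p = 0.00239, limma), and Tlr4, a receptor of bacterial lipopolysaccharide, was at -0.17 (adjusted p = 0.231, limma). The lipocalin 2 receptor Slc22a17 rose by 0.69 (adjusted p = 0.0113, limma). The receptors of complement fragments downstream of adipsin fell, C3ar1 by 1.26, C5ar1 by 0.90 and C5ar2 by 0.61 on the log2 scale (adjusted p = 0.0024, 0.00987 and 0.0349, limma). They are mostly genes of myeloid cells. The macrophage markers that fell most, Gpnmb, Itgax, Itgam and Trem2, fell by 2.89, 2.32, 1.59 and 1.58. Csf1r, Mrc1 and Cd163 did not pass, at -0.52, -0.0050 and 0.50. The part of macrophages in these receptor levels was not tested. Lepr was below the filter at 0.414 to 0.820 scaled FPKM in Mettl14f/f and 0.965 to 1.27 in Mettl14Δfat mice, and Lrp2, Stra6 and Ttr, the partners of retinol-binding protein, were also below it. Insr, the insulin receptor, was at 0.24 (adjusted p = 0.0507, limma).

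**Figure D5:**
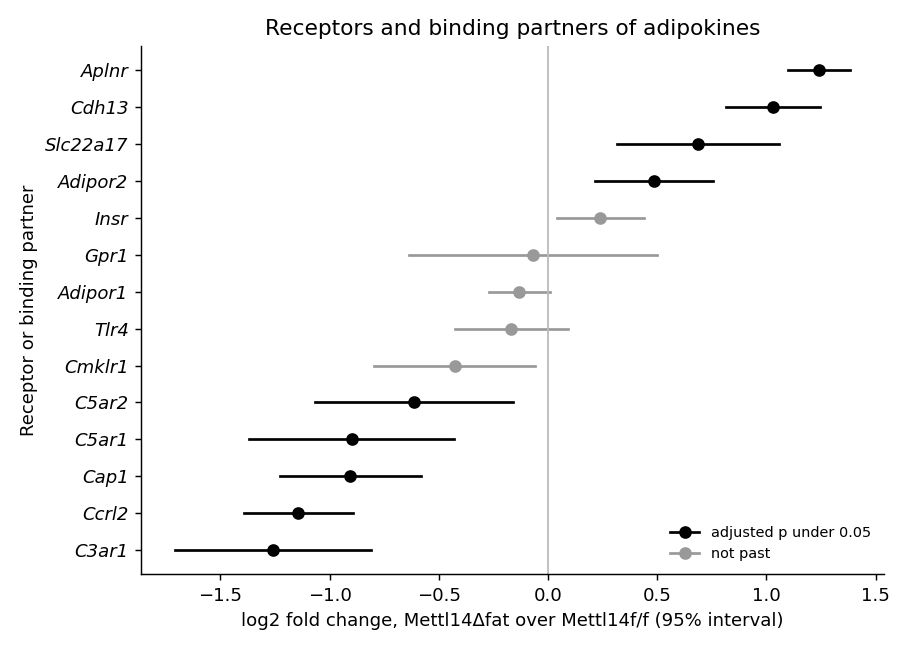
Points are the log2 fold changes, Mettl14Δfat over Mettl14f/f, of the 14 receptors and binding partners tested, and lines their 95% intervals; black marks an adjusted p under 0.05 (limma). Aplnr and Cdh13 lie highest at 1.24 and 1.03, and C3ar1 and Ccrl2 lowest at -1.26 and -1.14.

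Genes of the pathways in which Rbp4, Nampt, Cfd and Lcn2 act were counted next. Of 12 retinoid genes tested, 7 were higher and 1 lower (66.7% called against 49.5% of all genes tested, median 0.38). Aldh1a1, which makes retinoic acid, rose by 2.11, Aldh1a3 by 0.65, the receptor Rxra by 0.43 and the degrading enzyme Cyp26b1 by 0.40 on the log2 scale, while Dhrs3, which reduces retinal to retinol, fell by 0.63. Aldh1a1 was at 57.4, 31.9 and 36.8 scaled FPKM in Mettl14f/f and at 181, 193 and 163 in Mettl14Δfat mice, far above (adjusted p = 0.000643, limma). With Mettl14Δfat replicate 3 alone 4 were higher and 2 lower. Without Mettl14f/f replicate 1 also 2 were lower.

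Of 12 genes of NAD synthesis and use, 4 were higher and 3 lower (58.3% called against 49.5% of all genes tested, median 0.15). Without Mettl14f/f replicate 2 or 3 only 2 were higher. Cd38, an enzyme that consumes NAD, was at 6.65, 4.08 and 4.39 scaled FPKM in Mettl14f/f and 14.4, 11.5 and 16.2 in Mettl14Δfat mice, without overlap (log2 fold change 1.33, adjusted p = 0.00186, limma). Nnmt, which methylates nicotinamide, Nmrk1 and Nadsyn1 rose by 0.63, 0.38 and 0.32, and Aox1 and Parp1 fell by 0.76 and 0.51. Of 6 alternative complement genes only Cfb, the substrate of adipsin, passed, at 0.30 (adjusted p = 0.023, limma), and 0 to 2 were higher when single libraries were left out.

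Lcn2 is an acute phase gene. Of the 10 other acute phase genes tested 5 were higher and 4 lower (median 0.42), so the list did not move in 1 direction. Thus 90% were called, against 49.5% of all genes tested. Hpx (hemopexin, which binds heme) rose from 0.986, 1.27 and 1.67 to 25.3, 22.4 and 32.2 scaled FPKM, far beyond the spread (log2 fold change 3.58, adjusted p = 0.000102, limma). Orm2 and Orm1 rose by 2.52 and 1.19, although these near copies may share reads, and Lbp by 0.87. Il1rn, an interleukin 1 antagonist, and Saa3 fell by 1.45 and 0.89.

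Among 28 other secreted factors of fat, 10 were higher, 7 lower and 11 not past (median 0.17). Thus 60.7% were called, against 49.5% of all genes tested. Retnla, a relative of resistin made by alternatively activated macrophages in mice, was at 106, 46.8 and 91.7 scaled FPKM in Mettl14f/f and at 360, 346 and 382 in Mettl14Δfat mice. It rose by 2.22 (adjusted p = 0.00146, limma), opposite in sign to the estimate for Retn. Agt (angiotensinogen) rose by 2.03, Vegfa (a growth factor of blood vessels) by 1.24 and Bmp4 by 1.08. Sfrp5, an inhibitor of Wnt signalling, and Nrg4 fell by 1.76 and 1.40.

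Of 6 genes that follow the expansion of fat tissue, all were called, against 49.5% of all genes tested. There were 3 lower, among them Mest and Sfrp5, which fell by 2.49 and 1.76. Nkd1, Npr3 and Bmp3 rose by 1.48, 0.73 and 0.59. Mest was at 167, 165 and 224 scaled FPKM in Mettl14f/f and at 31.9, 35.6 and 28.6 in Mettl14Δfat mice, far apart (adjusted p = 0.000159, limma). Lep is known to follow fat mass as well. The body and fat weights of these 6 mice were not used here, so fat mass and genotype cannot be told apart for Lep.

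Of 17 regulators of adipokine genes tested, 8 were higher and 1 lower (52.9% called against 49.5% of all genes tested, median 0.22). Klf15 rose by 1.61, Foxo1 by 0.54, Srebf1 by 0.50 and Cebpa by 0.46, and Hif1a fell by 0.37 on the log2 scale. Klf15, a glucocorticoid-induced factor of adipocytes, was at 6.93, 3.91 and 5.12 scaled FPKM in Mettl14f/f and 17.2, 20.2 and 16.4 in Mettl14Δfat mice, without overlap. Cebpb, at 0.22 (adjusted p = 0.454, limma), and the NF-kB subunits Nfkb1 and Rela, at -0.15 and -0.022, did not pass; these 3 were singled out after their values were seen. With Mettl14Δfat replicate 3 alone 3 regulators were higher, and without that library 2 were lower.

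Adiponectin is folded and assembled into multimers in the endoplasmic reticulum before release. Of 9 genes of this step 5 were higher and 1 lower (66.7% called against 49.5% of all genes tested, median 0.27). Hspa5 rose by 0.66, Gstk1 (DsbA-L) by 0.63, Ero1l by 0.43 and Pdia4 by 0.39, while Adipoq itself did not pass. The 1 lower gene, Sirt1 at -0.23 (adjusted p = 0.0462, limma), was not called in any fit that left out 1 library.

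Each adipokine was last compared with all other genes tested by the Euclidean distance of its log2(FPKM + 1) values, centred on the gene's mean, over the 6 libraries. Fgf13 and Lrrc39 were nearest to Lep, Glb1l2 and Amy1 to Adipoq, 4931408D14Rik and Lipf to Retn, and Fam46b and Sptlc3 to Lcn2. Art3 and Hbb-bt were nearest to Rbp4, Mir6357 and Mir3060 to Cfd, Eps15 and Xdh to Nampt, Tmigd1 and Adora2a to Rarres2, and Lipt1 and Aacs to Apln. The distance to the nearest gene ran from 0.102 for Apln to 0.794 for Cfd, which had no close neighbour. Mir6357 and Mir3060 are short microRNA genes near the filter, with group means of 1.25 to 1.66 scaled FPKM. Within the set, Rarres2 and Apln were the closest pair at 0.389, followed by Lep and Adipoq at 0.473. The added 1 shrinks the change of low genes such as Apln, so the distances of Apln depend on it. The same holds for low neighbours of other adipokines. By mean scaled FPKM, Fam46b went from 1.12 to 17.2, Sptlc3 from 0.688 to 10.2 and Tmigd1 from 0.846 to 3.09. Sptlc3 and Tmigd1 thus passed the filter through the Mettl14Δfat libraries. With 0.1 added instead, the log2 fold change of Apln was 1.88 rather than 1.46, while that of Rarres2 was 1.18 in both fits. Distances with 0.1 added were not computed.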

How the data were processed

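The deposited values are FPKM per library with 2 decimals. For alignment and counting, the authors' methods give STAR and HTSeq, whereas HISAT2, Bowtie2 and RSEM, with the build mm10, come from the submitters' processing notes. DESeq2 is in both, and versions were not given. A second deposited table holds the authors' changed genes, with their log2 fold change and p-value columns, which were not used, and a mean signal per group. This signal is a scaled count, and it was used for depth only. Divided by FPKM and gene length it gave medians of 22200000 fragments for Mettl14f/f (5661 genes) and 19200000 for Mettl14Δfat (6363 genes). These rest on scaled group means of the authors' changed genes, so they are a rough guide only. Their difference cannot be read as one of depth, and counting error of single libraries is unknown. The FPKM of a library summed to 459180 to 461757 for Mettl14f/f and 487025 to 487690 for Mettl14Δfat.

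Of 21362 entries, 1 without an identifier was left out, and 27 symbols turned into dates were restored. Libraries were scaled by an unweighted trimmed mean of M values (30% of ratios and 5% of levels trimmed) over the 12955 genes whose mean reached 1 FPKM. The model was limma 3.58.1 in R 4.3.3 (lmFit, eBayes with a mean-variance trend, log2(FPKM + 1), genotype only), with Benjamini-Hochberg adjustment over all genes tested, and was tested on simulated data. Exact permutation tests were two-sided over 20 assignments. Mean ± SD is of scaled FPKM. All 9 adipokines are named, and of each other list up to 4 called genes with the largest change in its main direction and up to 2 in the other, with receptors and nearest genes. Adipokines, lists and this rule were chosen with earlier results of these data known. GGACT was added to the motifs after the values were seen. Promoters and gene coordinates are RefSeq GRCm38.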

Additional observations from a re-analysis of the deposited data

How the results depend on the processing

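Other settings tried were scaling by median of ratios, by a trimmed mean over all genes, to Rplp0 or not at all, a pseudocount of 0.1, a filter of 1 FPKM in each library or none, blocks for the replicate number or for the animal number series, single libraries left out, Mettl14Δfat replicate 3 alone, and adipocyte marker level as a covariate. FPKM as deposited moved the median over all genes to 0.15 (log2), with 4672 genes higher and 1963 lower against 3214 and 3202. Lep was then at -0.30, Cfd at 0.080 and no adipokine (0) lower. The trimmed mean over all genes gave 2865 higher and 3671 lower, and Rplp0 2085 and 4352. Replicate numbers did not pair the samples (correlations of same-numbered deviations 0.039, -0.093 and -0.13). With the replicate block, 2656 genes were higher and 2558 lower, Lep stayed at -0.46 with an adjusted p (limma) of 0.0727, and 0 adipokines and 0 adipocyte markers were lower. The animal number block gave -0.46 for Lep (0.0566) and 0 lower. Mettl14Δfat replicate 3 alone gave 1656 genes higher and 1519 lower and Rbp4 at 0.86. The covariate gave -0.48 for Adipoq and -0.92 for Retn. Leaving out single libraries gave ranges of -0.58 to -0.31 for Lep, -1.25 to -0.53 for Retn, 1.15 to 1.77 for Rbp4 and -0.62 to 0.34 for Cfd (0.34, 0.035 and 0.31 where it reversed), 0 to 1 adipokines lower and 3 to 4 higher, 2256 to 3813 genes higher and 2202 to 3565 lower. Nampt never passed. With 3 mice a group, the intervals for Adipoq, Retn and Cfd include changes of over 1.5 times.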
